A study of Mus musculus with 12 samples.

Results

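The genes described here are 10 mouse genes of glutathione S-transferases: Gstm1, Gstm2, Gstm5, Gsta4, Gstt1, Gstp1, Gsto1, Gstk1, Mgst1 and Mgst3. They were found by gene symbol in a table of raw read counts that held 54447 features. The family was picked for Gstm5, which had been seen to be higher with doxycycline (dox), so its dox values are given as a description and without a test. Of the 10 genes, 8 passed the filter on low counts, as did 13608 features in all. Expression was measured by RNA sequencing in 12 libraries that formed 4 groups of 3. The cells of all groups were labelled mouse embryonic fibroblasts, and the study's methods name the line NIH3T3. All of them carried a lentiviral, puromycin-selected construct with a dox-inducible promoter, so there was no group without a construct. The NLS-N-VEGF groups carried His-tagged N-VEGF, the N-terminal stretch of the long VEGF form L-VEGF, joined to the nuclear localization sequence of Cas9, and were sampled without or with dox. The N-VEGF groups carried the same His-tagged part without that sequence, also without or with dox. No group received dox without a construct, so a response to dox itself and a response to the construct cannot be told apart within either population. The comparison addressed which transcripts differ once N-VEGF is sent into the nucleus.

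Glutathione S-transferases join the tripeptide glutathione to reactive, electrophilic compounds, which are then exported from the cell. The cytosolic enzymes fall into classes named by a letter: mu (Gstm1, Gstm2, Gstm5), alpha (Gsta4), pi (Gstp1), theta (Gstt1) and omega (Gsto1). Gstk1 is the kappa enzyme of mitochondria and peroxisomes, and Mgst1 and Mgst3 are membrane proteins of another fold. Many genes of the family are known targets of NRF2, a transcription factor of the response to oxidants, which binds the antioxidant response element.

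The mu genes lie in one cluster on chromosome 3 (build GRCm38), where Gstm5 is at chr3:107895821-107898686 on the plus strand, Gstm2 at chr3:107981702-107986453 and Gstm1 at chr3:108012255-108017973, both on the minus strand. The lines below show how far a read of 80 bases can tell Gstm5 from Gstm1 and Gstm2 at a place where these are alike. Each is a single-exon stretch of coding sequence, taken from the GENCODE transcripts and written 5′ to 3′. The place was chosen for the fewest differences from Gstm5, summed over Gstm1 and Gstm2. Differences between Gstm1 and Gstm2 did not enter the choice. Capitals in Gstm5 mark bases at which either of the other genes differs, and capitals in the others mark bases that differ from Gstm5.
Gstm5: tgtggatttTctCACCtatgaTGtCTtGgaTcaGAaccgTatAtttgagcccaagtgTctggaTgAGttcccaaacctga
Gstm2: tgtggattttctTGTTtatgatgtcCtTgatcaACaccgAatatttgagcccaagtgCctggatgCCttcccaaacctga
Gstm1: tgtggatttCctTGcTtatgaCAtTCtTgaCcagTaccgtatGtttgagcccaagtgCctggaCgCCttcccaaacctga

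The stretch lies at chr3:107898174-107898253 in Gstm5, at chr3:107983959-107984038 in Gstm2 and at chr3:108014776-108014855 in Gstm1. There Gstm2 differed from Gstm5 at 12 bases and Gstm1 at 16. Over the whole coding sequence Gstm5 was 73.1% identical to Gstm2 and 71.6% identical to Gstm1, whereas Gstm1 and Gstm2 were 85.9% identical to each other. Windows of 80 exon bases that also occur exactly in another gene made up 7.09% of those of Gstm5, and all of these were shared with 4933431E20Rik, a non-coding gene on the opposite strand that overlaps 178 exon bases (13.9%) of Gstm5. How strand was treated in the counting is not given in the sources used here, so reads of that overlap cannot be told apart. 4933431E20Rik lay between 15.2 and 21.4 counts per 1000000 counts (CPM) in the 12 libraries, and its log2 fold change with dox in NLS-N-VEGF cells was -0.09 (SE 0.14), and that in N-VEGF cells was 0.08 (SE 0.14). Shared windows made up 28.3% in Gstp1 (with Gstp2 and the pseudogene Gstp-ps), 10.6% in Gstm1 and 1.55% in Gstm2. The counts of Gstp1 are the least certain of the 10 genes in this respect, and the other 6 genes shared no window.

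The sequence upstream of Gstm5 is shown because Gstm5 differed with dox, from RefSeq promoter sequence of build GRCm38.p6. It is the plus strand of chr3:107895604-107895820, 217 bases that end before the first base of the gene in GENCODE, and the RefSeq start lies at 107895854. Capitals mark matches to TGANTCA, the core of AP-1 sites, and to TGACNNNGC, the core of the antioxidant response element.
Gstm5: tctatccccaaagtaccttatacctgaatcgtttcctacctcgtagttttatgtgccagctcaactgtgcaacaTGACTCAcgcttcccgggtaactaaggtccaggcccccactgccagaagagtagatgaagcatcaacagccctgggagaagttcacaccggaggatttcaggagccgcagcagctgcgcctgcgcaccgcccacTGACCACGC

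TGANTCA reads the same on both strands, and it was found 176 bases before the RefSeq start of Gstm5. TGACNNNGC was found 42 bases before it. Promoter windows were given for 9 of the 10 genes, 11 windows in all, and the search covered the 250 bases before the start on both strands. TGANTCA was also found in Gstp1, 74 bases before the start, and TGACNNNGC in 1 of the windows of Mgst1, 56 bases before the start. Of 32851 promoter windows of the same length, 6.75% held TGANTCA and 10.2% held TGACNNNGC. The hypoxia response element cores ACGTG and GCGTG were held by 16.6% and 28.2% of windows. In Gstm5 ACGTG was not found, and GCGTG was found 2 times, 171 and 38 bases before the start, each time overlapping a capitalised motif. Among the other genes GCGTG was also found in Gstm1, Gstp1 and Mgst3, and ACGTG in Gstm1 and Gstp1. A match is a run of letters and not a measured site.

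Total counts per library lay between 13549331 and 18982127, at which 3 counts correspond to 0.158 to 0.221 CPM. The libraries of each group carry a number and a suffix in their labels: library 1 and library 2 of suffix _120519, and library 2 of suffix _290419. What the suffix stands for is not given in the labels. It set the libraries apart more than the groups did, with the first principal component (73.8% of the variance) between -14.1 and -3.31 in the 8 libraries of _120519 and between 13.2 and 19.0 in the 4 of _290419. Library 1 of N-VEGF cells without dox stood apart on the second component (8.44%) at 11.3, where the other libraries lay between -4.14 and 2.90, and it had the fewest genes detected, 19976 against up to 22889. The fibroblast markers were found in every library, among them Vim at 3635 to 5288 CPM and Col1a2 at 2648 to 3852 CPM. The lowest of them was Pdgfrb at 64.7 to 95.8 CPM, and Col3a1 varied from 158 to 644.7 CPM. The 6 markers of other cell types were low or near 0. Of these the endothelial markers Cdh5 and Pecam1 had 30 to 55 and 3 to 16 counts in a library, Cdh5 at 1.84 to 3.46 CPM, and the epithelial marker Cdh1 had 8 to 32, and these 3 passed the filter on low counts. Epcam and Alb had at most 1 count and Ptprc at most 5. In bulk samples, fewer cells of a type and less RNA per cell cannot be told apart. The labels do not say whether the libraries came from separate cultures, so p-values measure the spread between these samples.

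Of the 10 genes, Gsto1 was the most abundant in all 12 libraries. Per length of exon, as CPM per 1000 exon bases (RPKM), its level was 200.4 ± 42.4 (SD, n = 12), between 157.1 and 274.7. It was followed by Gstp1 at 63.9 ± 9.22, Gstm1 at 52.5 ± 9.92, Gsta4 at 39.8 ± 5.38, Gstm5 at 38.6 ± 9.41, Mgst3 at 31.3 ± 3.80, Gstm2 at 25.2 ± 4.79 and Mgst1 at 8.54 ± 1.29 RPKM. The ranges of Gsto1 and Mgst1 did not overlap those of their neighbours in this order, and from Gstp1 down to Gstm2 the ranges of neighbouring genes overlapped. Within a library, however, Gstp1 was above Gstm1 and Gstm1 above Gsta4 in 12 of 12, and Mgst3 was above Gstm2 in 11 of 12. This order rests on the exon length taken for each gene, which is the same in every library. For Gstp1 the position in GENCODE did not match the one given with the counts. Gsta4 was above Gstm5 in 6 of 12 libraries and Gstm5 above Mgst3 in 9, so these neighbours had no fixed order. Gstt1 had 2 to 8 counts in a library and Gstk1 0 to 2, so a difference between groups was not detectable for either at this depth. Gsto1, an omega enzyme with glutathione-dependent reductase activity, alone made up 46.2% to 58.8% of the summed CPM of the 10 genes, which lay between 660.8 and 952.9.

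**Figure D1:**
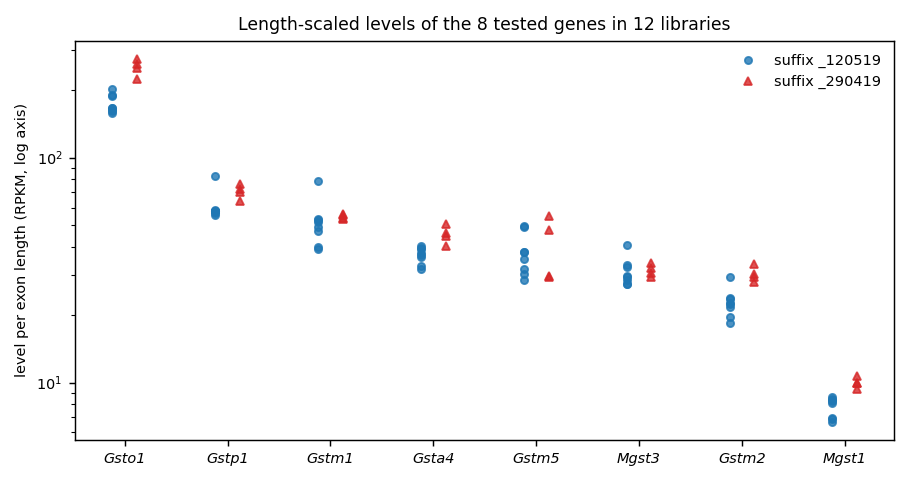
Level per exon length (RPKM, log axis) of the 8 genes that passed the filter, each point 1 of 12 libraries, circles for suffix _120519 and triangles for _290419. Gsto1 lies above all other genes at 157.1 to 274.7 RPKM and Mgst1 below them all.

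Gstm5 was the gene for which the family was picked, and its levels with dox were higher than those without in both populations. In NLS-N-VEGF cells without dox it measured 40.9, 38.9 and 37.7 CPM in library 1 of _120519, library 2 of _120519 and library 2 of _290419, and with dox 48.5, 48.9 and 60.8 CPM. In N-VEGF cells the untreated libraries measured 45.2, 36.5 and 37.9 CPM in the same order, and the treated ones 63.3, 62.9 and 70.6 CPM. All 6 libraries with dox lay above all 6 without, and the highest with dox was that of _290419 in each population. The means were 39.1 ± 1.62 without and 52.7 ± 6.99 under dox in NLS-N-VEGF cells, and 39.9 ± 4.64 and 65.6 ± 4.32 in N-VEGF cells (SD, n = 3 each). The fitted log2 fold change in NLS-N-VEGF cells was 0.43 (SE 0.11, 1.35-fold), and in N-VEGF cells it was 0.72 (SE 0.11, 1.64-fold). Among the 13608 features these were the 397th and the 113th highest. Within suffix _120519 alone they were 0.28 (SE 0.10) and 0.62 (SE 0.10).

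**Figure D2:**
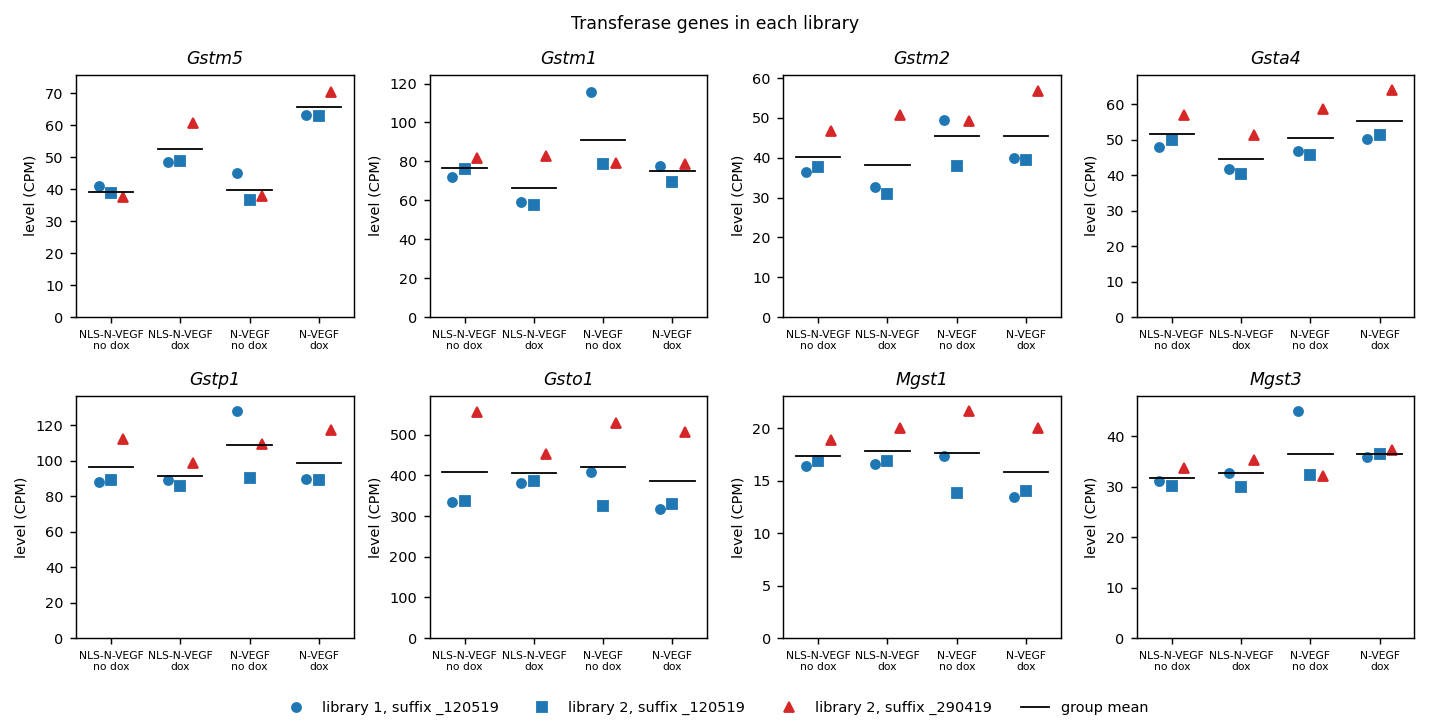
Level (CPM) of the 8 genes that passed the filter in each library, by group, with circles and squares for libraries 1 and 2 of suffix _120519, triangles for suffix _290419 and lines for group means. In Gstm5 the 6 libraries with dox lie between 48.5 and 70.6 CPM and those without between 36.5 and 45.2, while in Gsto1 and Mgst1 the triangles lie above all circles and squares.

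Groups that did not overlap, all 6 dox libraries above all 6 without, occurred for 0.257% of features, and among the 8 genes for Gstm5 alone, which the choice of the gene fixes. Libraries of the same replicate label were compared as 6 pairs of dox over no dox. Gstm5 was higher with dox in 6 of 6 pairs, at log2 ratios of 0.24, 0.32 and 0.66 in NLS-N-VEGF cells and 0.47, 0.75 and 0.86 in N-VEGF cells. Mgst1 and Mgst3, the membrane enzymes, were higher in 4 of 6 pairs, Gstm2, Gsta4 and Gsto1 in 3, Gstp1 in 2 and Gstm1 in 1.

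**Figure D3:**
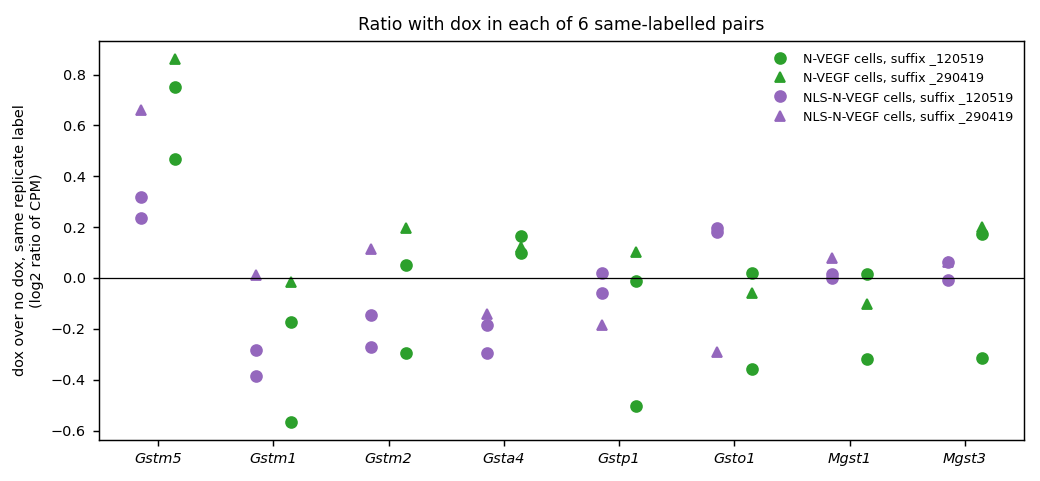
Log2 ratio of CPM with dox over without for libraries of the same replicate label, 3 pairs per population, with circles for suffix _120519 and triangles for _290419. All 6 ratios of Gstm5 lie above 0, between 0.24 and 0.86, and those of the other genes lie between -0.57 and 0.20.

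The other mu genes were lower or near the level without dox. Gstm1, an abundant mu enzyme, had a log2 fold change of -0.21 (SE 0.17) in NLS-N-VEGF cells, and its value in N-VEGF cells was -0.28 (SE 0.17). In N-VEGF cells it measured 115.8, 78.4 and 79.3 CPM before dox, against 77.6, 69.3 and 78.5 CPM after it, so the difference there lay mainly in library 1 without dox, and without that library it was -0.07 (SE 0.14). Gstm2, nearer than Gstm1 to Gstm5 in coding sequence, had log2 fold changes of -0.08 (SE 0.21) and -0.01 (SE 0.20).

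Gsta4, the alpha enzyme known for the lipid peroxidation product 4-hydroxynonenal, was lower with dox in 3 of 3 pairs of NLS-N-VEGF cells and higher in 3 of 3 pairs of N-VEGF cells. In the former it measured 47.9, 49.9 and 56.8 CPM before dox, against 41.8, 40.3 and 51.3 CPM after it. In the latter it measured 46.8, 45.6 and 58.6 CPM before, against 50.2, 51.4 and 63.9 CPM after. The libraries with and without dox overlapped in both populations. The log2 fold changes were -0.21 (SE 0.14) and 0.13 (SE 0.14). Gstp1, the pi enzyme, had -0.08 (SE 0.15) and -0.14 (SE 0.15), and the latter was -0.01 (SE 0.15) without library 1 of N-VEGF cells without dox. Gsto1 had -0.01 and -0.13 (SE 0.24 each), Mgst1 0.04 and -0.15 (SE 0.18 each), and Mgst3 0.04 and 0.00 (SE 0.13 each). These values are from the fit without a block. When replicate labels entered the fit as a block, the values of Gsta4 were -0.22 (SE 0.07) in NLS-N-VEGF and 0.13 (SE 0.07) in N-VEGF cells, and that of Gstm1 in N-VEGF cells was -0.28 (SE 0.13), so the fold changes stayed near those above with smaller SE.

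The share of all features past the threshold (edgeR, adjusted p under 0.05 over all features) is given for scale. For dox it came to 0.022% in NLS-N-VEGF and 0.0367% in N-VEGF cells, and to 0.125% and 0.11% in the fit with replicate labels as a block. The family was picked on this contrast, so no calls are given for the transferase genes.

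Gstm5 was set beside the construct insert, a feature of the count table, after the values were seen. The insert had 0.288 to 0.857 CPM in the 6 libraries without dox. In NLS-N-VEGF cells with dox it measured 2.57, 2.58 and 10.2 CPM, beside Gstm5 at 48.5, 48.9 and 60.8 CPM. In N-VEGF cells with dox it measured 7.56, 8.08 and 17.9 CPM, beside 63.3, 62.9 and 70.6 CPM. In order of rising insert level, Gstm5 in the 6 dox libraries was thus 48.5, 48.9, 63.3, 62.9, 60.8 and 70.6 CPM, which is not a steady rise. These are the values for which Gstm5 was picked, and the libraries share dox, population and suffix, so no correlation is given.

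**Figure D4:**
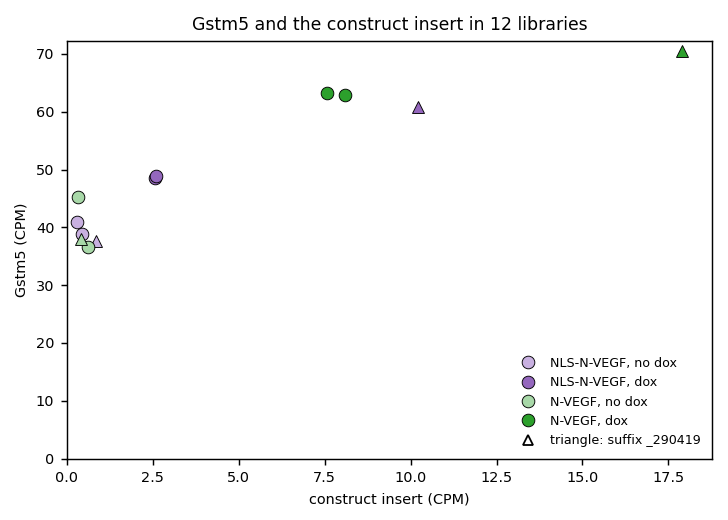
Gstm5 against the construct insert (both CPM) in 12 libraries, coloured by group, with triangles for suffix _290419. The libraries without dox lie at 0.288 to 0.857 CPM of insert, and among those with dox Gstm5 lies between 48.5 CPM at 2.57 CPM of insert and 70.6 CPM at 17.9 CPM.

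Between the populations with dox, the NLS-N-VEGF libraries had less Gstm5 than their N-VEGF partners in 3 of 3 pairs, with a log2 fold change of -0.31 (SE 0.11), and less Gsta4 in 3 of 3 pairs, with -0.31 (SE 0.14). A single sign in 3 of 3 pairs was common here: Gstm2, Mgst3 and Gstp1 were also lower in all 3, with -0.25 (SE 0.20), -0.16 (SE 0.13) and -0.12 (SE 0.15), and Mgst1 was higher in all 3, with 0.17 (SE 0.18). The dox libraries of Gstm5 did not overlap between the populations, with a highest of 60.8 CPM in NLS-N-VEGF cells and a lowest of 62.9 CPM in N-VEGF cells, and nor did those of Mgst3. All 3 dox libraries of NLS-N-VEGF cells lay below all 3 of N-VEGF cells for 3.5% of features and above them for 2.99%. The difference between the dox effects of the populations was -0.29 (SE 0.16) for Gstm5 and -0.34 (SE 0.19) for Gsta4, and with the replicate block it was -0.29 (SE 0.13) and -0.35 (SE 0.099). Both comparisons use the dox libraries on which the family was picked, so they are descriptions. Across all features 0% passed in either of them with edgeR, with 160 and 116 features at an unadjusted p under 0.05, and DESeq2 called 0 in both.

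Without dox no difference between the populations was called in the transferase genes, in a comparison that uses no dox library. Of the 8 genes 0 passed, 0 had an unadjusted p under 0.05 and DESeq2 called 0. Across all features 0% passed, 82 had an unadjusted p under 0.05 and DESeq2 called 0. The log2 fold changes of NLS-N-VEGF over N-VEGF cells lay between -0.25 (SE 0.17, Gstm1) and 0.03 (SE 0.14, Gsta4), and Gstm5 had -0.03 (SE 0.11). Their median was -0.11, beside -0.0046 over all features. Gstm1, Mgst3 and Gstp1 had -0.25, -0.20 and -0.18, and without library 1 of N-VEGF cells these were -0.04, -0.02 and -0.05.

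Many features differed between the suffixes of the labels, and transferase genes were among them. Gsto1, Gstm2, Mgst1, Gsta4 and Gstp1 were higher in the libraries of _290419 in a fit with group and suffix, and none of the 8 genes was lower. Of the 8 genes 5 passed (62.5%), beside 45.6% of all features, 22.2% higher and 23.5% lower, so the count is not read as particular to the transferases. Their median log2 fold change was 0.27, beside 0.01 over all features. With the replicate block 5 passed as well, and DESeq2 called 5.

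Gsto1 differed most, by 0.54 on the log2 scale (SE 0.07, 1.45-fold, adjusted p = 2.15e-05 with edgeR), and was higher in 4 of 4 groups. It measured 317.8 to 408.2 CPM in the 8 libraries of _120519 and 555.7, 453.7, 528.9 and 507.8 CPM in those of _290419, so the suffixes did not overlap. Gstm2 was higher by 0.43 (SE 0.08, adjusted p = 0.000355), with 30.8 to 49.4 CPM in _120519 and 46.8 to 56.7 CPM in _290419. Mgst1, a membrane enzyme with peroxidase activity, was higher by 0.36 (SE 0.08, adjusted p = 0.00119) and did not overlap between the suffixes either, with 13.5 to 17.3 CPM against 18.9 to 21.6 CPM. Of all features, 13.1% had all 4 libraries of _290419 above all 8 of _120519 and 14.9% all 4 below, where none of the 8 genes lay.

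Gsta4 was higher by 0.30 (SE 0.05, adjusted p = 0.000112), in 4 of 4 groups. Gstp1 was higher by 0.23 (SE 0.08, adjusted p = 0.0258), and this call was lost when any of 6 libraries was left out, namely each of those of NLS-N-VEGF cells without dox and of N-VEGF cells with dox, with adjusted p between 0.0555 and 0.16. Without library 1 of N-VEGF cells without dox it was 0.30 (adjusted p = 1.25e-05). Gstm1 had 0.12 (SE 0.10, adjusted p = 0.373) and did not pass, and without that library it passed at 0.20 (SE 0.06, adjusted p = 0.00999). Mgst3 had 0.02 (SE 0.09, adjusted p = 0.84).

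Gstm5 had 0.08 (SE 0.07, adjusted p = 0.362) and did not pass. In its 4 groups the difference between suffixes was -0.08 and -0.09 without dox, for NLS-N-VEGF and N-VEGF cells, and 0.31 and 0.16 with dox, so the sign differed between dox and no dox. Without dox the library of _290419 lay below both of _120519 in NLS-N-VEGF cells but between them in N-VEGF cells, where the highest was library 1, so no direction is shown there. With dox it lay above both in each population. The difference between dox and no dox was not tested.

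**Figure D5:**
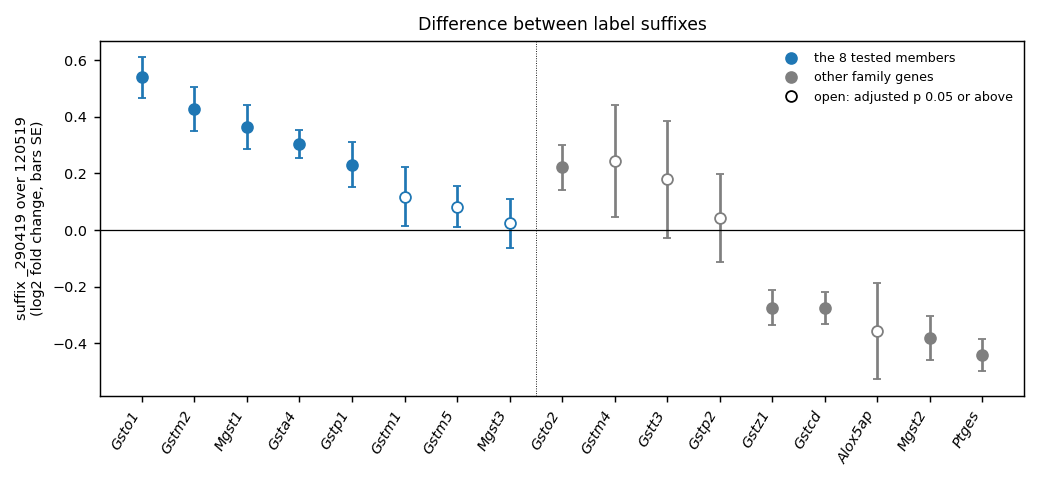
Log2 fold change of suffix _290419 over _120519 with its SE, for the 8 genes (left) and 9 other genes listed with the family (right). Filled points mark an adjusted p under 0.05. Of the 8 genes 5 are filled and above 0, and of the other 9, 4 are filled below 0 and Gsto2 is filled above it.

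The other genes listed with the family lay on both sides of 0. This list also held genes such as Ptges and Alox5ap, whose symbols do not name a glutathione S-transferase. Its counts and median are thus not those of transferases alone. Of 20 such genes 9 passed the filter on low counts, 4 of them with a value above 0, and 5 (55.6%) differed between suffixes, beside the 45.6% of all features. Gsto2, the second omega enzyme, was higher, by 0.22 (SE 0.08, adjusted p = 0.0303). The other 4 were lower: Ptges, which makes prostaglandin E2, by a log2 fold change of -0.44 (SE 0.06, adjusted p = 1.63e-05), Mgst2 by -0.38 (SE 0.08, adjusted p = 0.001), Gstcd by -0.28 (SE 0.06, adjusted p = 0.00115) and Gstz1, the zeta enzyme of tyrosine breakdown, by -0.27 (SE 0.06, adjusted p = 0.00193). Gstm4, Gstt3, Gstp2 and Alox5ap had 0.24 (SE 0.20), 0.18 (SE 0.21), 0.04 (SE 0.16) and -0.36 (SE 0.17) and did not pass. The median of the 9 was -0.27. Gsta1, Gsta2, Gsta3, Gstm3, Gstm6, Gstm7, Gstt2, Gstt4, Gstp3, Hpgds and Ltc4s did not pass the filter.

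With dox, none of these 9 genes passed in either population. The mu gene among them, Gstm4, had 0.01 (SE 0.31) in NLS-N-VEGF and 0.20 (SE 0.31) in N-VEGF cells. Gstp2, which shares windows with Gstp1, had -0.25 (SE 0.21) and -0.47 (SE 0.21).

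The genes around the transferases in glutathione metabolism were taken from 8 lists of 71 genes, the family list included, of which 53 passed the filter on low counts. Between suffixes 28 of the 53 (52.8%) differed, 16 higher and 12 lower, and DESeq2 called 26. This share is near the 45.6% of all features, against which the counts of the single lists of 5 to 9 tested genes also stand, so none is read as particular to its list. Their median log2 fold change was 0.08. Of the synthesis and cystine uptake genes 4 of 5 differed, 2 in each direction: Slc7a11, the cystine transporter, was lower by a log2 fold change of -0.78 (SE 0.11, adjusted p = 2.73e-05), and Gclc and Gclm, the subunits of the rate-limiting ligase, named after their values were seen, were higher by 0.39 (SE 0.06, adjusted p = 0.00011) and 0.44 (SE 0.06, adjusted p = 2.85e-05).

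Of the genes that reduce glutathione and supply NADPH 4 of 5 differed, 3 higher and 1 lower. Of the tested peroxidases 3 of 5 were higher and none lower, led by Gpx1 at 0.55 (SE 0.08, adjusted p = 4.07e-05). Of the breakdown genes 2 of 8 differed, 1 in each direction, and Chac1, which cleaves glutathione in the cytosol and is a known target of the ATF4 pathway, had the lowest value of all list genes at -1.55 (SE 0.12, adjusted p = 1.4e-07). Of the exporters 4 of 5 differed, 2 in each direction, with Abcg2 at 0.78 (SE 0.09, adjusted p = 3.45e-06) and Abcc5 at 0.44 (SE 0.09, adjusted p = 0.000968). Of the glyoxalases and glutaredoxins 2 of 7 differed, 1 in each direction.

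Of NRF2, its regulators and its reference targets 4 of 9 differed, 3 higher and 1 lower. Bach1, a repressor that competes at the same sites, was lower by a log2 fold change of -0.50 (SE 0.07, adjusted p = 2.15e-05). The 3 that were higher were Nqo1, Hmox1 and Txnrd1, named after their values were seen, at 0.27, 0.33 and 0.30, while Nfe2l2, the gene of NRF2, had -0.05 (SE 0.06, adjusted p = 0.527). Srxn1, another of the reference targets, did not pass.

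With dox, 0 of the 53 list genes passed in NLS-N-VEGF cells and 0 in N-VEGF cells with edgeR, with 0 and 2 at an unadjusted p under 0.05, and DESeq2 called 0 in both. With the replicate block 0 passed as well, with 4 and 4 at an unadjusted p under 0.05 (edgeR). In the 3 other comparisons of dox and population 0 passed, 0 had an unadjusted p under 0.05 and DESeq2 called 0. With the block 0 passed there too. At an unadjusted p under 0.05 (edgeR) there was 1 gene between populations without dox, 1 with dox and 0 for the difference of dox effects. The NRF2 targets are given with dox in NLS-N-VEGF and N-VEGF cells, in this order. Nqo1 had 0.08 (SE 0.14) and 0.03 (SE 0.14), and Txnrd1 -0.02 and -0.01 (SE 0.14 each). Hmox1 had -0.31 and -0.20 (SE 0.17 each), the lowest values of its list. Srxn1, another of these targets, had means of 178.2 CPM without and 170.8 CPM with dox in NLS-N-VEGF cells. In N-VEGF cells its means were 186.9 and 179.7 CPM.

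The genes beside Gstm5 on chromosome 3 had log2 fold changes with dox below those of Gstm5, as did most features. Gstm5 was picked as higher with dox, so this order is a description. Within 250 kb there were 28 other genes in the table, of which 11 passed the filter. Their dox log2 fold changes lay between -0.86 and 0.03 in NLS-N-VEGF cells and between -0.28 and 0.48 in N-VEGF cells, beside 0.43 and 0.72 for Gstm5. The lowest in NLS-N-VEGF cells was Gm12500, a gene of low level at a mean of 0.781 CPM, with -0.86 (SE 0.36), and the highest was Ahcyl1, at 239.4 CPM, with 0.03 (SE 0.08). In N-VEGF cells the lowest was Gstm1, and the highest was Gnat2, at a mean of 1.59 CPM, with 0.48 (SE 0.28).

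Likeness to Gstm5 was measured as the Pearson correlation of log2 CPM over the 8 libraries of _120519, since the suffixes form separate clusters, among 12057 genes whose mean was 1 CPM or more. The most alike were Radil (0.986), Wdr55 (0.981), Stx11 (0.966), Synj1 (0.956) and Slc29a3 (0.954). With 8 libraries that share dox and population and with 12057 genes compared, such values are a description. The changes differed in size: Wdr55 had log2 fold changes for dox of 0.04 and 0.08 in NLS-N-VEGF and N-VEGF cells, and Slc29a3, a nucleoside transporter, had 0.41 and 0.35. In the libraries of _290419, which the measure did not use, Slc29a3 went from 13.7 CPM without to 21.1 CPM under dox in NLS-N-VEGF cells, and from 14.6 to 18.01 CPM in N-VEGF cells. Radil there measured 3.43 and 3.20 CPM, and 2.56 and 3.48 CPM. Among the transferase genes Mgst3 was the most like Gstm5, at 0.346 and place 2309, and Mgst1 the least, at -0.435.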

How the data were processed

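RNA of 12 libraries was sequenced as single reads of 80 bases. Deposited were raw read counts, without normalization, which the authors made with Trim Galore, TopHat2 2.1.0 (Bowtie2 2.2.6) and HTSeq 0.6.1 on build GRCm38, per the submitters' processing notes and the study's methods. The transferase genes and the gene lists were chosen with earlier results of these data known. Counts were tested with edgeR 4.0.16 in R 4.3.3: filterByExpr by group kept 13608 of 54447 features, libraries were scaled by TMM, and quasi-likelihood F tests, two-sided, used 1 mean per group, with the suffix added for the suffix comparison. The threshold was 0.05 on p adjusted by Benjamini-Hochberg over all features. Standard errors came from the F statistics. CPM used the TMM-scaled totals, RPKM also the exon length in GENCODE, and likeness and components log2 CPM with a pseudocount of 2. The fitting code was tested on simulated data. Number and suffix together were taken to pair libraries across groups. Over 12058 genes the deviations from group means of all 18 same-label pairs correlated above 0.1 (0.400 to 0.830, mean 0.590). Of 36 other pairs 12 did so too, up to 0.678. Their mean was -0.247, and centring on group means by itself pushes it below 0. Of the 12 libraries 9 were most like their own label, so the pairing by library number within _120519 is not certain. No libraries agreed within sampling noise (chi-square per degree of freedom 1.76 to 76.1 within groups). Floors and depth cover counting error only. Alternatives were DESeq2 1.42.0, RLE scaling, other filters, the replicate block, suffix as a term, suffix _120519 alone, only library 2 of each suffix, and leaving out each library. Named were the 10 genes, the tested genes listed with the family, and the 5 genes most like Gstm5. Also named were up to 6 list genes per comparison with the largest change past the threshold in 1 direction in every pair or group.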

Additional observations from a re-analysis of the deposited data

Results flagged for a closer look

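In the 8 libraries of suffix _120519, the untreated library 1 of N-VEGF cells was far from the others for 3 of the genes, by Dixon's criterion at the 95% level. Gstm1 measured 115.8 CPM there (next highest 78.4), Gstp1 128.2 CPM (next 90.1) and Mgst3 45.1 CPM (next 36.6). In 16 sets of libraries checked (8 genes, 2 suffixes), chance would flag about 1 in 20. The same library stands apart on the second principal component and has the fewest genes detected, and the part of this in the 3 values was not tested.

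Gsta4 moved with dox in opposite directions in the populations, lower in 3 of 3 pairs of NLS-N-VEGF cells and higher in 3 of 3 pairs of N-VEGF cells. Over 19 alternatives its log2 fold change in N-VEGF cells lay between 0.01 and 0.23, and that in NLS-N-VEGF cells between -0.32 and -0.14. Mgst1 in NLS-N-VEGF cells and Gstm1 in N-VEGF cells also had a single sign in 3 of 3 pairs. The pairing by library number within _120519 is not certain. The difference of the effects was -0.34 (SE 0.19) on the log2 scale, or -0.35 (SE 0.099) with the replicate block, and no feature of the 13608 passed for this difference in either fit (116 had an unadjusted p under 0.05 in the unblocked one), while DESeq2 called 0.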

How the results depend on the processing

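In the comparisons in which the transferase genes were tested, between suffixes and between populations without dox, 288 of their values under the alternatives kept their side of the threshold, 6 lost a call and 2 gained one. In those that involve dox, no calls are given. There the dox effects of the tested transferase genes in each population were covered, and the differences between the populations for Gstm5 alone. Of these values 322 moved by less than the spread between pairs and 20 by more. The 6 losses were those of Gstp1 between suffixes. Gstm1 passed between suffixes without library 1 of N-VEGF cells without dox, and at 0.19 (adjusted p = 0.0467) with only library 2 of each suffix. Gsto1 in NLS-N-VEGF cells went from -0.01 to 0.27 without library 2 of suffix _290419 without dox. Gsta4 in N-VEGF cells with dox, at 0.13, lay between 0.01 and 0.23. In 13 of 19 alternatives this value moved by less than the spread between pairs. The log2 fold change of Gstm5 with dox ranged over the alternatives from 0.28 to 0.49 in NLS-N-VEGF and from 0.62 to 0.82 in N-VEGF cells. The count of transferase genes that differed between suffixes was 4 to 6, and of all features 4929 to 7200.

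Counts of all features called with dox, where few pass, depended on the setting. In NLS-N-VEGF cells 3 became 12 with DESeq2, 53 with no filter, 17 with the replicate block, 15 with suffix as a term and 109 in suffix _120519 alone, and 0 to 3 with 1 library left out, 0 without any of the untreated NLS-N-VEGF libraries. In N-VEGF cells 5 became 8, 36, 15, 13 and 16 in the same order, and 1 to 7 with 1 library left out, where it was 3 or fewer without any of the 6 libraries without dox and 1 without library 1 or 2 of _120519 with dox in N-VEGF cells. Between the populations with dox 0 became 9 with no filter, 2 with the block, 2 with suffix as a term and 11 in _120519 alone. Without dox 0 became 10 with no filter and 5 in _120519 alone, and for the difference of dox effects 1 and 4. The causes were not tested. The replicate block changed no call of a transferase gene between suffixes or between populations without dox. At this depth Gstt1 and Gstk1 could not be compared.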
